A study of Mus musculus with 2 samples.

Results

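Mir148a, Mir148b and Mir152 are the 3 mouse genes of the miR-148/152 family, a group of microRNAs with the same seed. They were chosen by their symbols in the GENCODE M21 annotation, each symbol matching a single locus, and make up 3 of the 2202 microRNA genes counted. All 3 are single-copy hairpin genes. The rule of choice used no measured value, although earlier results of these data were known when it was made.

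Their levels were read from small RNA libraries of the whole heart of male B6CASTF1/J mice aged 2 months, untreated as far as the labels say. B6CASTF1/J is the first-generation cross of C57BL/6J with the wild-derived CAST/EiJ strain, so each animal carries both parental genomes. The labels define a single group of 2 biological replicates, numbered as different males but listed under 1 donor identifier. With 1 library for each numbered male, differences between animals and between library preparations cannot be told apart. Whether the libraries come from different animals cannot be settled from the labels.

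A microRNA is cut from a hairpin transcript as a short strand from the 5′ arm or the 3′ arm, and its seed, bases 2 to 8 of the mature strand, pairs with target messenger RNAs. In this family the 3′ strand is known as the main product. The family has been described as repressing the DNA methyltransferase DNMT1 in human cells, and miR-148a as repressing the LDL receptor in mouse liver, a tissue in which it is abundant. Mir148b and Mir152 lie within genes for paralogous subunits of the coatomer, the protein coat of vesicles that travel from the Golgi apparatus back to the endoplasmic reticulum.

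The mature 3′ strands are shown because they define the family and decide which reads can be credited to which gene. Capitals mark the seed, and sequences and positions are from RefSeq on GRCm38.p6, the assembly also called mm10.

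miR-148a-3p: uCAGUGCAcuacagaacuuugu

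miR-148b-3p: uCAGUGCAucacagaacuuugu

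miR-152-3p: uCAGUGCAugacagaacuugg

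All 3 strands carry the seed CAGUGCA, and no other of the 1738 mature mouse sequences in the RefSeq table did. Counting positions from 1 at the 5′ end, miR-148a-3p and miR-148b-3p differed at 2 of 22 positions, C9U and U10C. Between miR-148a-3p and miR-152-3p the differences over the 21 bases they share in length were C9U, U10G and U20G, and between miR-148b-3p and miR-152-3p they were C10G and U20G. The changes at positions 9 and 10 sit just behind the seed.

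The mature 5′ strands differ more, and they are shown because a count for a hairpin gene adds both strands.

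miR-148a-5p: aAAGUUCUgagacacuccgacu

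miR-148b-5p: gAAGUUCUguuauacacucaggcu

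miR-152-5p: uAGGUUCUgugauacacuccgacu

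miR-148a-5p and miR-148b-5p shared the seed AAGUUCU with each other and with no other sequence of the table. The seed of miR-152-5p, AGGUUCU, was found in no other mature sequence. The deposited counts do not separate the strands, so how the reads divide between them was not analysed here.

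The hairpins show where the strands lie, with both mature strands in capitals.

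Mir148a: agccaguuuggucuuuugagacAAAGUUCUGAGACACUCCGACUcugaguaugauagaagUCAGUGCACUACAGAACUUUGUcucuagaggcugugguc

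Mir148b: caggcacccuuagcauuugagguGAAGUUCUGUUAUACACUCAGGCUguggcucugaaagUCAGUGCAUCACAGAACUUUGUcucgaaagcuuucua

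Mir152: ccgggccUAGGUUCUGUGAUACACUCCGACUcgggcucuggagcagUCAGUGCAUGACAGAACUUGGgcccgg

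The longest run shared by any of these hairpins was 15 bases, between Mir148a and Mir148b. Mir152 shared at most 12 bases with Mir148a and 11 with Mir148b, and its longest run with any counted hairpin was 13 bases, with Mir3473f. Outside the family the longest run was 11 bases for Mir148a and 12 bases for Mir148b. Each of the 6 mature sequences was found in the annotated transcripts of its own gene and of no other gene. A full-length mature read without mismatches could therefore be credited to 1 of the 3 genes among annotated transcripts, although a search of the whole genome was not run. This matters because reads mapped to several places entered no gene, and they made up 48.0% of the reads in replicate 1 and 46.4% in replicate 2.

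Mir148a (ENSMUSG00000065505.1) lies on the minus strand of chromosome 6 from 51269812 to 51269910 of mm10, in no annotated gene of the same strand. Only genes on the strand of the hairpin were counted as hosts. The nearest gene on its strand was the long non-coding RNA gene Gm32479, 13621 bases away. Mir148b (ENSMUSG00000065560.1) lies on the plus strand of chromosome 15 from 103285125 to 103285221, in intron 1 of Copz1. That intron is 16159 bases long, and the hairpin begins 12183 bases after exon 1. Mir152 (ENSMUSG00000065515.1) lies on the plus strand of chromosome 11 from 96850393 to 96850465, in intron 1 of Copz2. This intron is 676 bases long and the hairpin begins 396 bases after exon 1. Both hosted hairpins thus have the same strand as their host and the same intron number, at very different distances from the host's start. Transcripts of Copz1 and Copz2 themselves were not measured, since the libraries hold small RNA.

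**Figure D1:**
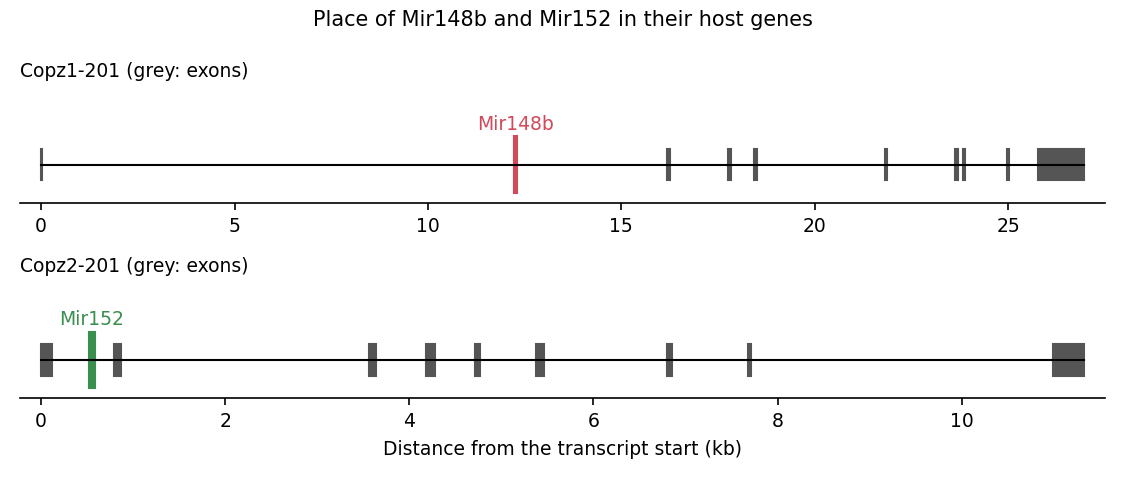
Exons (grey) of 1 protein-coding transcript each of Copz1 and Copz2, with the hosted hairpin in colour, by distance from the transcript start in kb; the 2 panels have different scales. Mir148b starts 12215 bases and Mir152 starts 517 bases from the transcript start, both in intron 1.

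Reads counted on the strand of microRNA genes numbered 3650782 in replicate 1 and 3810675 in replicate 2. Levels are given in CPM, counts per 1000000 of these reads, so that 1 count is 0.274 CPM in replicate 1 and 0.262 CPM in replicate 2. Intervals are exact Clopper-Pearson 95% intervals of the counts. They cover counting error only, since no molecular identifiers were used to tell molecules from copies made by PCR.

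Mir148a had 300 counts in replicate 1 and 683 in replicate 2. This was 82.2 CPM (73.1 to 92.0) in replicate 1 and 179 CPM (166 to 193) in replicate 2. The intervals of the libraries do not overlap, and the mean was 131 CPM ± 68.6 (SD, n = 2). Mir148a was the most counted member in both libraries.

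Mir148b, the Copz1 member, had 293 counts in replicate 1 and 319 in replicate 2. Its level was 80.3 CPM (71.3 to 90.0) in replicate 1 and 83.7 CPM (74.8 to 93.4) in replicate 2. The intervals overlap over most of their width, and the mean was 82.0 CPM ± 2.44 (SD, n = 2), the smallest spread of the 3 members.

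Mir152, the Copz2 member, had 277 counts in replicate 1 and 567 in replicate 2. Its level was 75.9 CPM (67.2 to 85.4) in replicate 1 and 149 CPM (137 to 162) in replicate 2. These intervals do not overlap either, and the mean was 112 CPM ± 51.6 (SD, n = 2).

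Within replicate 1 the intervals of all 3 members overlap, so the members had no order beyond counting error. Within replicate 2 none of the 3 intervals overlap, with Mir148a above Mir152 and Mir152 above Mir148b. Over both libraries the order of the means was Mir148a, Mir152, Mir148b, and neighbours in this order differ by less than the SD between libraries of the higher of them.

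**Figure D2:**
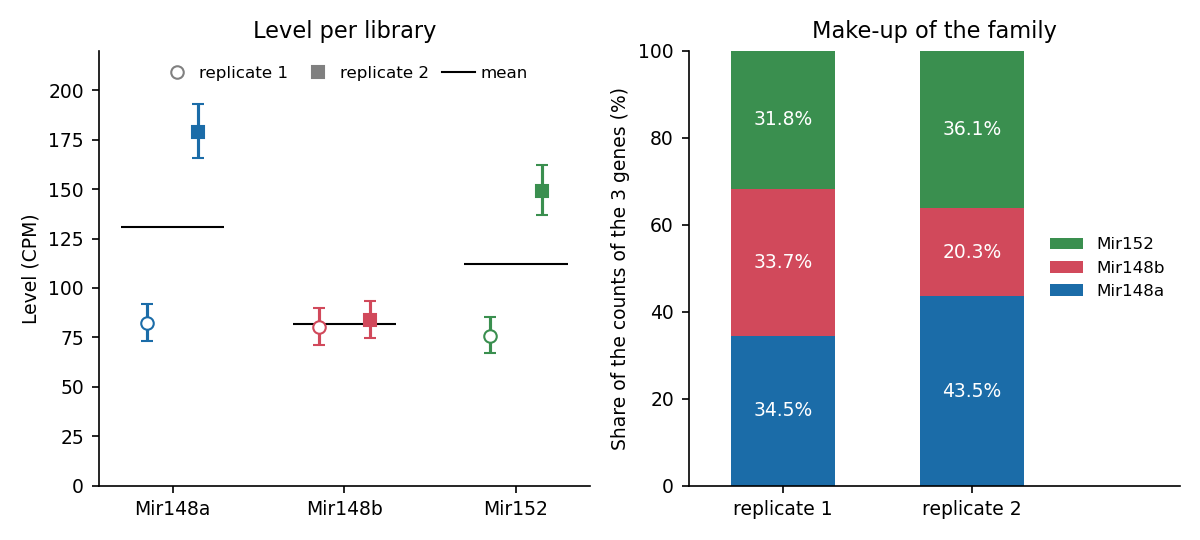
Left, level in CPM of each member in replicate 1 (open circle) and replicate 2 (filled square) with exact 95% intervals of the counts and the mean (line). Right, share in % of the counts of the 3 genes held by each member. Mir148b stays near 82.0 CPM in both libraries, and its share is 33.7% in replicate 1 and 20.3% in replicate 2.

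Together the members held 870 counts in replicate 1 and 1569 in replicate 2. This was 0.0238% of the microRNA counts in replicate 1 (0.0223 to 0.0255) and 0.0412% in replicate 2 (0.0392 to 0.0433), or 0.0325% ± 0.0123 (SD, n = 2). The family was thus a small part of the counted heart microRNAs. By mean level Mir148a ranked 128, Mir152 ranked 140 and Mir148b ranked 152 among the 2202 genes. Of these genes, 337 reached 2 CPM in both libraries, the limit used for detection, and all 3 members did. The median mean level of the 337 was 54.1 CPM, and 62.0% of them lay below Mir148a, 58.5% below Mir152 and 54.9% below Mir148b. The ranks in the single libraries were 147 and 117 for Mir148a, 148 and 151 for Mir148b, and 154 and 128 for Mir152, in replicates 1 and 2. Since reads mapped to several places entered no gene, genes with copies elsewhere may rank too low beside these single-copy members. The ranks and the family's share therefore hold for the counted reads only.

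**Figure D3:**
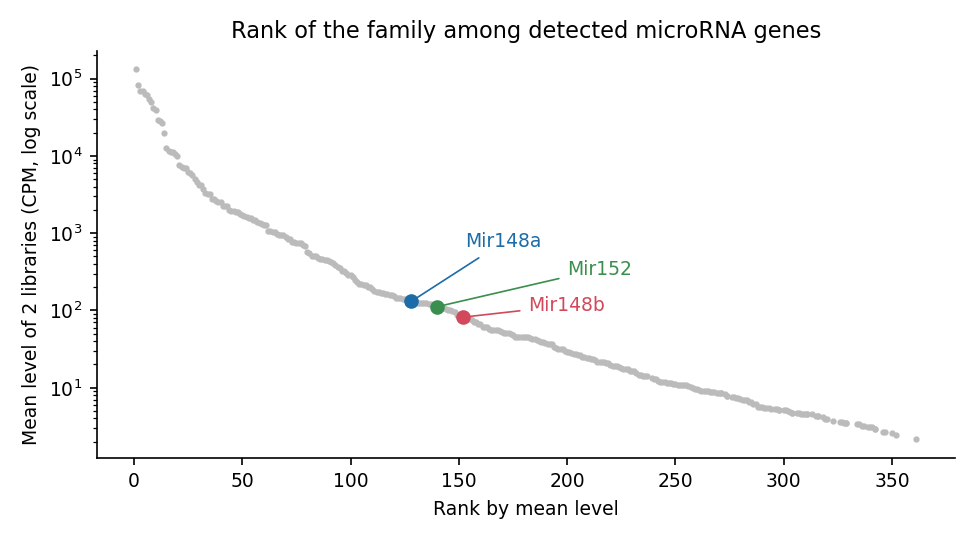
Mean level of the 2 libraries in CPM (log scale) against rank for the 337 detected genes (grey), with the 3 members in colour. The members sit at ranks 128, 140 and 152, above the median of 54.1 CPM.

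The make-up of the family is free of library scaling, because the members are compared inside a library. Mir148a held 34.5% of the family's counts in replicate 1 (31.3 to 37.7) and 43.5% in replicate 2 (41.1 to 46.0). Mir152 held 31.8% in replicate 1 (28.8 to 35.0) and 36.1% in replicate 2 (33.8 to 38.6). Mir148b held 33.7% in replicate 1 (30.5 to 36.9) and 20.3% in replicate 2 (18.4 to 22.4). The intervals of Mir148a and of Mir148b do not overlap between the libraries, whereas those of Mir152 do.

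Ratios between members were formed as log2 of CPM + 0.5 within each library, and were not tested, because the smallest p that an exact permutation of 2 libraries allows is 0.5. Mir148a over Mir148b was 0.03 in replicate 1 and 1.09 in replicate 2, a mean of 0.56 ± 0.75 (SD, n = 2). Mir152 over Mir148b, the ratio of the coatomer-hosted members, was -0.08 in replicate 1 and 0.83 in replicate 2, a mean of 0.37 ± 0.64 (SD, n = 2). In replicate 1 the counts of these members did not differ beyond counting error, and in replicate 2 Mir152 was the higher. Mir148a over Mir152 was 0.11 in replicate 1 and 0.27 in replicate 2, a mean of 0.19 ± 0.11 (SD, n = 2). Mir148a and Mir152, on different chromosomes and the first with no host, kept a nearer ratio across the libraries than the hosted members did with each other.

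The libraries were next compared gene by gene, as the log2 ratio of replicate 1 over replicate 2, by an exact binomial test (two-sided) that scales the counts with TMM library sizes. Over the 320 genes past the low-count filter, which all 3 members passed, 64.4% differed at an adjusted p under 0.05, 30.6% being lower and 33.8% higher in replicate 1. A call here means a difference beyond counting noise between these libraries, and no condition is compared. Of the members, 2 of 3 were called and both were lower in replicate 1, so the count called is close to the background.

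Mir148a was 0.463 times as high in replicate 1 as in replicate 2, a log2 ratio of -1.11 (95% interval -1.31 to -0.91; exact binomial test, Benjamini-Hochberg adjusted p = 3.51e-30). Mir152 gave a log2 ratio of -0.96 (-1.17 to -0.75; adjusted p = 5.24e-20, same exact test). Mir148b gave -0.05 (-0.28 to 0.19; adjusted p = 0.75, same exact test), an interval that leaves out the values of both other members. The median absolute log2 ratio of the 320 genes was 0.44. The change was smaller than that of Mir148a in 85.0% of the genes, smaller than that of Mir152 in 77.8% and smaller than that of Mir148b in 5.00%. The places were similar among genes of like level. Of the 70 genes within 2 times of the mean of Mir148b, 4.29% changed less than it did. Of the 58 genes within 2 times of Mir148a, 79.3% changed less, and of the 62 near Mir152, 74.2% did.

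**Figure D4:**
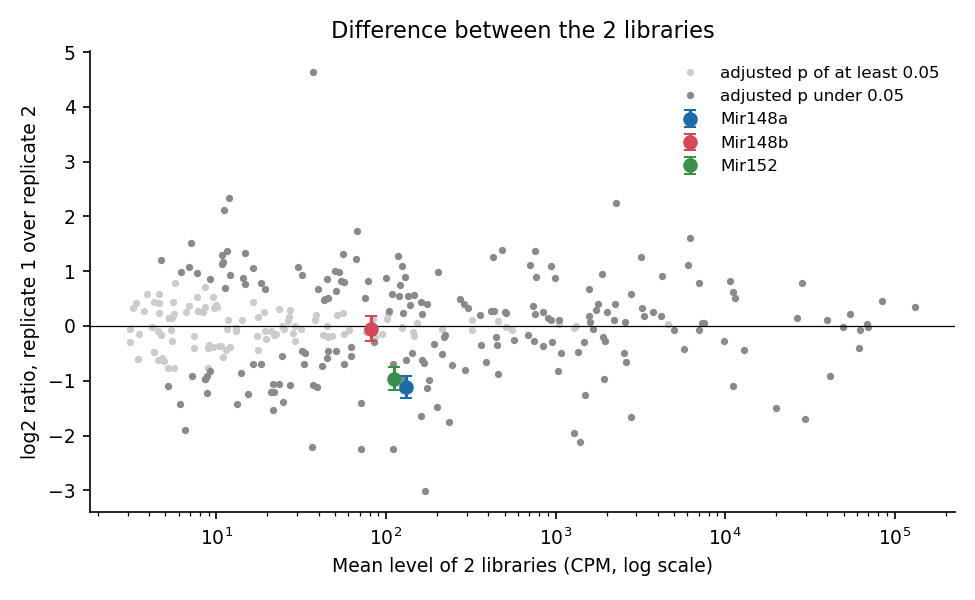
Log2 ratio of replicate 1 over replicate 2 against mean level in CPM (log scale) for the 320 tested genes, dark grey where the adjusted p was under 0.05. Coloured points are the members with exact 95% intervals; Mir148a at -1.11 and Mir152 at -0.96 lie below 0, and Mir148b at -0.05 lies on it.

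The counts came from the annotated strand. Without regard to strand the members had the same counts as on their own strand in both libraries, and on the opposite strand each had 0 counts. A count of 0 allows up to 3 counts, or 0.822 CPM in replicate 1 and 0.787 CPM in replicate 2. No overlapping gene on the other strand therefore took reads from the members in the column without strand.

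The microRNAs nearest in seed are those of the miR-130 and miR-301 group, whose seed AGUGCAA is the same letters set off by 1 base. Examples are shown because their mature strands begin with the family's whole seed, 1 base too early, so that the seeds share 6 letters.

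miR-130a-3p: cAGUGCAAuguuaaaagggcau

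miR-301a-3p: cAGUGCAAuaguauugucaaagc

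Mir130a, known from blood vessels, was far above the family, at 2093 CPM in replicate 1 and 2970 CPM in replicate 2, and its log2 ratio of replicate 1 over replicate 2 was -0.49. Mir130b stood at 170 CPM in replicate 1 and 80.3 CPM in replicate 2, close to the level of the family, with a log2 ratio of 1.10, opposite in sign to Mir148a and Mir152. Mir301 was at 9.04 and 21.5 CPM in replicates 1 and 2. Mir301b had 0 and 2 counts, and Mir721 had 0 in both. Of the 5 genes, 3 were tested, with 1 called higher and 2 called lower in replicate 1. Calls were common, at 33.8% higher and 30.6% lower over all 320 tested genes. The median log2 ratio of the 3 was -0.49, beside -0.02 over all tested genes. Runs of 16 or 17 bases are shared with other hairpins by Mir130a, Mir130b, Mir301 and Mir301b.

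The miR-29 genes, which are known to repress the DNA methyltransferases DNMT3A and DNMT3B in human cells, were led by Mir29a at 10919 CPM in replicate 1 and 14824 CPM in replicate 2. Of the 4 genes, 2 were called lower in replicate 1, none higher, and Mir29b-1 and Mir29b-2 passed in neither direction. Among all tested genes, 30.6% were called lower and 33.8% higher. The median log2 ratio of the 4 was -0.22. Mir29b-1 shares 25 bases with Mir29b-2 and 22 with Mir29c, so reads within these runs entered no gene and their levels are uncertain.

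Other microRNAs in paralogous hosts give a setting for Mir148b and Mir152. The 9 genes compared were those in the Ctdsp phosphatase, Pank kinase and myosin heavy chain genes, of which 8 were tested, with 6 called higher and 2 called lower in replicate 1 and a median log2 ratio of 0.46. Over all tested genes 33.8% were called higher and 30.6% lower. The most abundant was Mir26b of Ctdsp1, at 35782 CPM in replicate 1 and 20913 CPM in replicate 2. The Mir26a and Mir103 genes and Mir107 share 24 to 27 bases with another gene, so their levels are uncertain. In the myosin group no gene shares more than 14 bases with another counted hairpin. There Mir208a of Myh6 and Mir208b of Myh7 gave log2 ratios of -1.67 and -2.24, while Mir499 of Myh7b gave 0.07. The tested genes of the Ctdsp and Pank hosts were all called higher in replicate 1, with Mir26b at 0.79 and Mir107 at 0.22. MicroRNAs of the myosin and coatomer hosts thus had unequal differences between these libraries. Of all tested genes 64.4% differed, in both directions, so unequal differences were common and are not particular to paralogous hosts.

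Markers of cell types in the heart also differed between the libraries. In bulk tissue, fewer cells of a type and less RNA per cell cannot be told apart. All 6 tested leukocyte genes were called higher in replicate 1, opposite to Mir148a and Mir152, where 33.8% of all tested genes were. This share is not matched for level, and genes with many counts are called at small ratios. The log2 ratios of the 6 ran from 0.18 for Mir146 and Mir155 to 1.36 for Mir142. Their median was 0.38, beside a median absolute log2 ratio of 0.44 over all tested genes. The summed level of the 7 leukocyte genes was 11912 CPM in replicate 1 and 9274 CPM in replicate 2. The most abundant leukocyte gene was Mir150, known from mature lymphocytes, at 4069 and 3420 CPM. Mir146 and Mir146b share 21 bases, so their levels are uncertain. Of the liver and gut genes, 4 of 5 tested were called lower in replicate 1, where 30.6% of all tested genes were. Among these 4, Mir194-1 and Mir215 lie in the same host gene, so they are not independent markers. The median log2 ratio of all 5 tested genes was -1.20. All 6 genes of this list together held 194 and 245 CPM in replicates 1 and 2. The liver microRNA gene Mir122, the most abundant of the list, was the exception, at 142 CPM in replicate 1 and 97.9 CPM in replicate 2. Mir802 had 0 counts in both. Mir194-1 and Mir194-2, among the 4 lower genes, share 22 bases with each other, so their levels are uncertain.

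Of the 5 tested cardiac muscle genes, 2 were called higher and 2 lower in replicate 1. Among all tested genes, 33.8% were called higher and 30.6% lower. The median log2 ratio of the 5 was -0.07. All 7 genes of this list together held 4032 and 6942 CPM in replicates 1 and 2. Mir499 was the largest part in replicate 1, at 2601 CPM, and Mir208a in replicate 2, at 4265 CPM. The Mir1a and Mir133a genes of this list share 28 or 31 bases with another gene, so their levels are uncertain and the sums may be too low. The endothelial sum was 52212 CPM in replicate 1 and 70229 CPM in replicate 2, nearly all from Mir126a, and Mir126b had 0 and 4 counts. The smooth muscle sum, led by Mir143, was 54611 CPM in replicate 1 and 53284 CPM in replicate 2. Its genes differed, since Mir143 had a log2 ratio of -0.02 and Mir145a one of 0.92. Mir145a stood at 5530 CPM in replicate 1 and 2953 CPM in replicate 2, and shares 17 bases with Mir145b. The erythroid sum was 3222 CPM in replicate 1 and 2960 CPM in replicate 2, with Mir451a at 1925 and 1217 CPM and Mir486 at 885 and 1267 CPM. The part of any of these cell types in the levels of Mir148a and Mir152 was not tested.

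**Figure D5:**
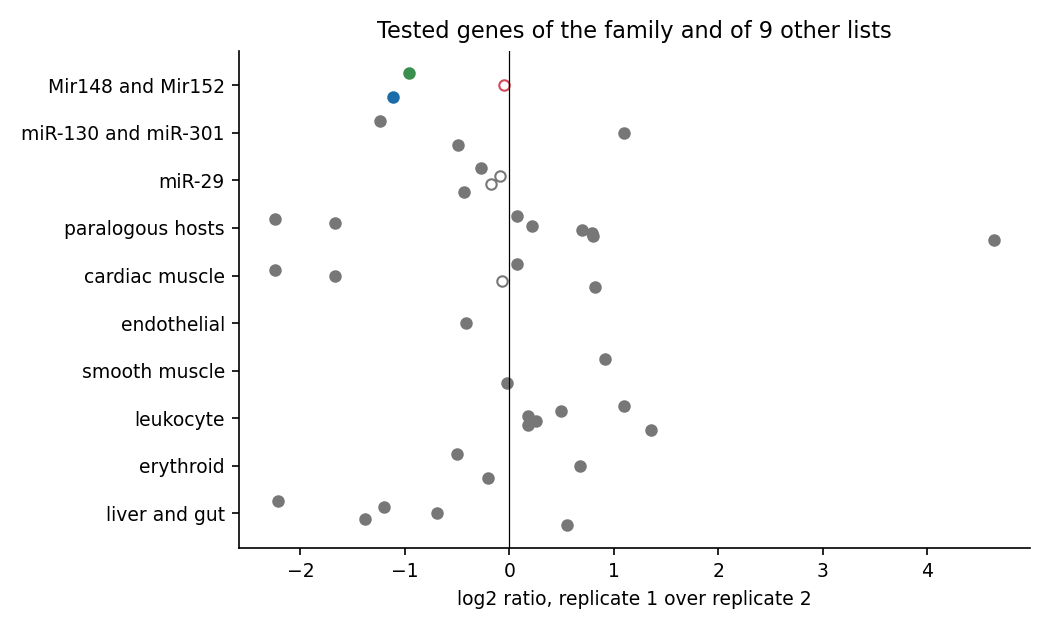
Log2 ratio of replicate 1 over replicate 2 for each tested gene of the family (top, coloured) and of the 9 other lists (grey), filled where the adjusted p was under 0.05. All 6 leukocyte points lie to the right of 0, while Mir148a and Mir152 lie to its left at -1.11 and -0.96.

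The genes whose levels in the 2 libraries lay nearest to each member were found by Euclidean distance of log2(CPM + 0.5), a measure over 2 samples that describes level more than pattern. For Mir148a they were Mir210, known for its induction by low oxygen, at 77.2 and 175 CPM (distance 0.094), and Mir154 of the imprinted Dlk1-Dio3 region, at 85.7 and 168 CPM (0.113). For Mir148b they were Mir24-1, at 80.0 and 84.0 CPM (0.007), and Mir18 of the miR-17-92 cluster, at 86.8 and 80.6 CPM (0.126). Mir24-1 shares 28 bases with Mir24-2, so its own level is uncertain. Mir18 shares a shorter run of 17 bases with Mir18b, and whether its reads mapped to several places was not analysed. For Mir152 they were Mir1249, at 75.9 and 151 CPM (0.023), and Mir193b, at 83.8 and 137 CPM (0.186). On the same measure Mir152 was 0.291 from Mir148a and 0.830 from Mir148b, and Mir148a was 1.094 from Mir148b. Mir148b therefore stood farther from both other members than they stood from each other.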

How the data were processed

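The authors deposited raw read counts per microRNA gene, 1 file per heart library with 3 count columns and no header. Per the deposited text beside each file, the assembly was mm10 and the annotation GENCODE M21. The aligner is not given in the sources used here. Column totals within a library were equal, so multimapped reads had their own row and entered no gene. Library sizes excluded the 4 rows without a gene, which held 64.8% of the reads in replicate 1 and 63.6% in replicate 2.

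Counts on the strand of the gene were used. CPM, log2 ratios and intervals were computed here. Libraries were compared by an exact two-sided binomial test with edgeR 4.0.16 TMM library sizes and filterByExpr in R 4.3.3, with Benjamini-Hochberg adjustment over all 320 tested genes and a threshold of 0.05. It was tested on simulated counts with counting noise only, which cannot show how it behaves under further spread between libraries. With 1 group, edgeR's quasi-likelihood test had nothing to compare. Alternatives used DESeq2 1.42.0 size factors, plain totals, other filters, denominators, strand, pseudocount and detection limit. Hosts, positions and hairpins came from GENCODE M21, mature sequences from RefSeq, and folding energies from RNAfold 2.7.2.

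Members, lists and alternatives were chosen with earlier results of these data known. The genes named are the members, the 2 genes nearest to each in level, the most abundant gene of each list, and genes that share a seed or 15 bases with a member. Mir130b, Mir208b and other list members named beside them, and Mir3473f, were chosen after their values were seen.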

Additional observations from a re-analysis of the deposited data

How the results depend on the processing

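Mir148a and Mir152 stayed lower in replicate 1 and past the threshold, and Mir148b stayed short of it, under DESeq2 size factors, plain totals, no low-count filter, a filter of 10 CPM and counts without strand. Over these alternatives the log2 ratio of replicate 1 over replicate 2 ran from -1.19 to -1.09 for Mir148a, from -1.04 to -0.94 for Mir152 and from -0.12 to -0.03 for Mir148b (exact binomial test, adjusted p of Mir148b between 0.559 and 0.887). The genes called numbered 206 of 320 in the fit reported, and 213 of 722 with no low-count filter, 176 of 238 at 10 CPM, 181 of 297 without strand, 205 with DESeq2 size factors and 204 with plain totals. The mean level of Mir148b moved by more than its small SD with the denominator. This level was 106 CPM without strand, 94.5 CPM with the most abundant gene, Mir378a, left out and 72.3 per 1000000 uniquely mapped reads. The counts of Mir148b were the same in each. The means of Mir148a and Mir152 moved too, to 169 and 145 CPM without strand, but by less than their larger SDs. Without replicate 1 or without replicate 2, the family's share was 0.0412% or 0.0238% and Mir152 over Mir148b on the log2 scale was 0.83 or -0.08, which are the values of the single libraries. The difference between libraries has no such alternative, because it needs both. No paired analysis was possible because the labels give 1 group only. About 300 counts per member in replicate 1 limit its levels there to within the intervals given.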

Other observations

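The members also differ in their hairpins. Mir152 was the shortest, at 73 bases with 61.6% G and C, while Mir148a had 99 bases with 45.5% and Mir148b 97 bases with 45.4%. The minimum free energy predicted with RNAfold was -43.5 kcal/mol for Mir152, -41.0 for Mir148a and -30.9 for Mir148b. Per base this was -0.60 for Mir152, -0.41 for Mir148a and -0.32 for Mir148b, beside a median of -0.37 over all 2202 hairpins. By this measure 96.1% of the hairpins were less stable than Mir152, 65.6% less stable than Mir148a and 32.7% less stable than Mir148b. The hairpins as annotated differ in how much flanking stem they include, which enters these energies.

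Among the 337 detected genes, 149 lay in an intron of a host, 80 overlapped an exon of one and 108 had no host. The median mean level was 66.8 CPM for the intronic genes and 39.1 CPM for those with no host. Mir152 at 112 CPM and Mir148b at 82.0 CPM were above the first median, and Mir148a at 131 CPM was above the second.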
